A study of Mus musculus with 33 samples.

Results

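The 10 genes described here mark the donor cells of 2 kinds of cloned mouse blastocyst and were followed across a set of 33 single-embryo microarrays. The 5 Sertoli cell markers were Amh, Sox9, Wt1, Dhh and Clu, and the 5 cumulus cell markers were Has2, Ptx3, Tnfaip6, Inha and Foxl2. They were taken as every non-control probe carrying one of these gene names, which gave 15 probes for the 10 genes, out of 41174 probes and 27670 named genes on the array.

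Sertoli cells are the somatic nurse cells of the testis tubule, and cumulus cells are the granulosa-derived cells that surround the ovulated oocyte. Sertoli cells follow the SOX9 programme and secrete anti-Müllerian hormone, while cumulus cells answer the ovulatory signal by building a hyaluronan-rich matrix. Somatic cell nuclear transfer places such a nucleus in an enucleated oocyte, so the donor's genes can be read again in the embryo that forms.

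Each array held the amplified RNA of 1 blastocyst of (C57BL/6NxDBA/2)F1 background, labelled with a single dye. The clones came from neonatal Sertoli cells (4 male blastocysts), adult cumulus cells (3 female), and Purkinje or hippocampal CA1 neurons of adults (4 male and 4 female of each). All clones received 50 nM trichostatin A, a histone deacetylase inhibitor, for 1 h during activation, 5 h together with cytochalasin B and 2 h afterwards. Blastocysts from in vitro fertilisation (IVF; 7 male, 3 female) were the comparison, and all embryos were cultured to 96 h, so nuclear transfer and the drug cannot be told apart. Neither the number of donor mice nor the number of nuclear transfer experiments per group is stated, so each p-value reflects only how much these particular blastocyst arrays varied, and that variation may be technical. In a whole blastocyst, fewer cells of a type and less RNA per cell cannot be told apart.

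Signals are given as a percent of the 75th percentile of all probe signals on the same array, or as log2 of that ratio after all values under a common floor were raised to it. The floor lay at 9.37% (log2 -3.42) and held 56.2% of all values. The 75th percentile ranged from 229.9 to 1450 intensity units, and 45.1% to 62.6% of spots were well above background by the scanner software's own call. The faintest signal called well above background lay at 6.51% to 8.40% on Sertoli arrays, at 0.696% to 0.897% on cumulus arrays and at 0.579% to 1.01% on male IVF arrays, so counts of such calls are not comparable between these groups. The 13 cumulus and IVF arrays and the 20 others were read with different scanner and software versions. For every clone group except cumulus, this set cannot be told apart from the contrast with IVF. For cumulus clones it cannot be told apart from the contrast with neuronal clones. Each clone group also lay on a slide of its own, so slide and clone group cannot be told apart.

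Promoter windows from RefSeq (GRCm38.p6), running from 250 bases before to 50 after the gene start, were on hand for 5 of the 10 members. The pair below is shown because it sets a marker measured in nearly all groups, Dhh, beside one near background almost everywhere, Ptx3. Capitals mark the letters GGGCGG, the core of an Sp1-type GC box, searched on both strands (CCGCCC on the reverse). The Dhh window, at chr15:98898491-98898790 on the minus strand, and the Ptx3 window, at chr3:66219637-66219936 on the plus strand, read 5′ to 3′ as follows.
Dhh: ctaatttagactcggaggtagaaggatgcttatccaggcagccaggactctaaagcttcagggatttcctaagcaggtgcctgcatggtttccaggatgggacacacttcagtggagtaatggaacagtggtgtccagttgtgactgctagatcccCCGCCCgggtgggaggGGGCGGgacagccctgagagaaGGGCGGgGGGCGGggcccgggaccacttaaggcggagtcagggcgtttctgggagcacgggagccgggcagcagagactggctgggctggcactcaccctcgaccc
Ptx3: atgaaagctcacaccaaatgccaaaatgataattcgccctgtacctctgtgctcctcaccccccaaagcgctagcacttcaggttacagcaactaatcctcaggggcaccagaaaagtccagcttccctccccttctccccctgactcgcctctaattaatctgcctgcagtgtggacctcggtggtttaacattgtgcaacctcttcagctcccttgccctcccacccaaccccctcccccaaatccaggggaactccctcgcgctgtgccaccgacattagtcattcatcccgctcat
The Dhh window held 4 matches and 12 CpG dinucleotides, and the Ptx3 window held 0 matches and 8 CpG. The windows not shown held 2 matches and 27 CpG (Foxl2, near the floor), 1 and 12 (Tnfaip6, mostly near background) and 0 and 5 (Inha). A link between matches and signal was not tested. Among 32851 promoter windows, 35.7% held at least 1 match and 5.49% held 4 or more, and the median window held 7 CpG. A match describes these letters and is not shown to be a site in use.

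The markers of both donor cell types were mostly dim. Of the 495 member values (15 probes on 33 arrays), 79 lay above the floor (16.0%), against 43.7% of the values of all probes. Well above background were 145 (29.3%), against 55.8% of all values, and 6 of the 15 probes never left the floor. Per array, 2 to 5 member probes were well above background in Sertoli clones, 5 to 6 in cumulus clones, 5 to 8 in male IVF embryos and 4 to 6 in female IVF embryos. Of all probes, 44.8% to 45.9%, 55.5% to 57.6%, 56.0% to 60.8% and 58.1% to 60.4% were so called, in the same order. The faintest signal so called was higher on the Sertoli arrays, so their counts are not comparable with the others.

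**Figure D1:**
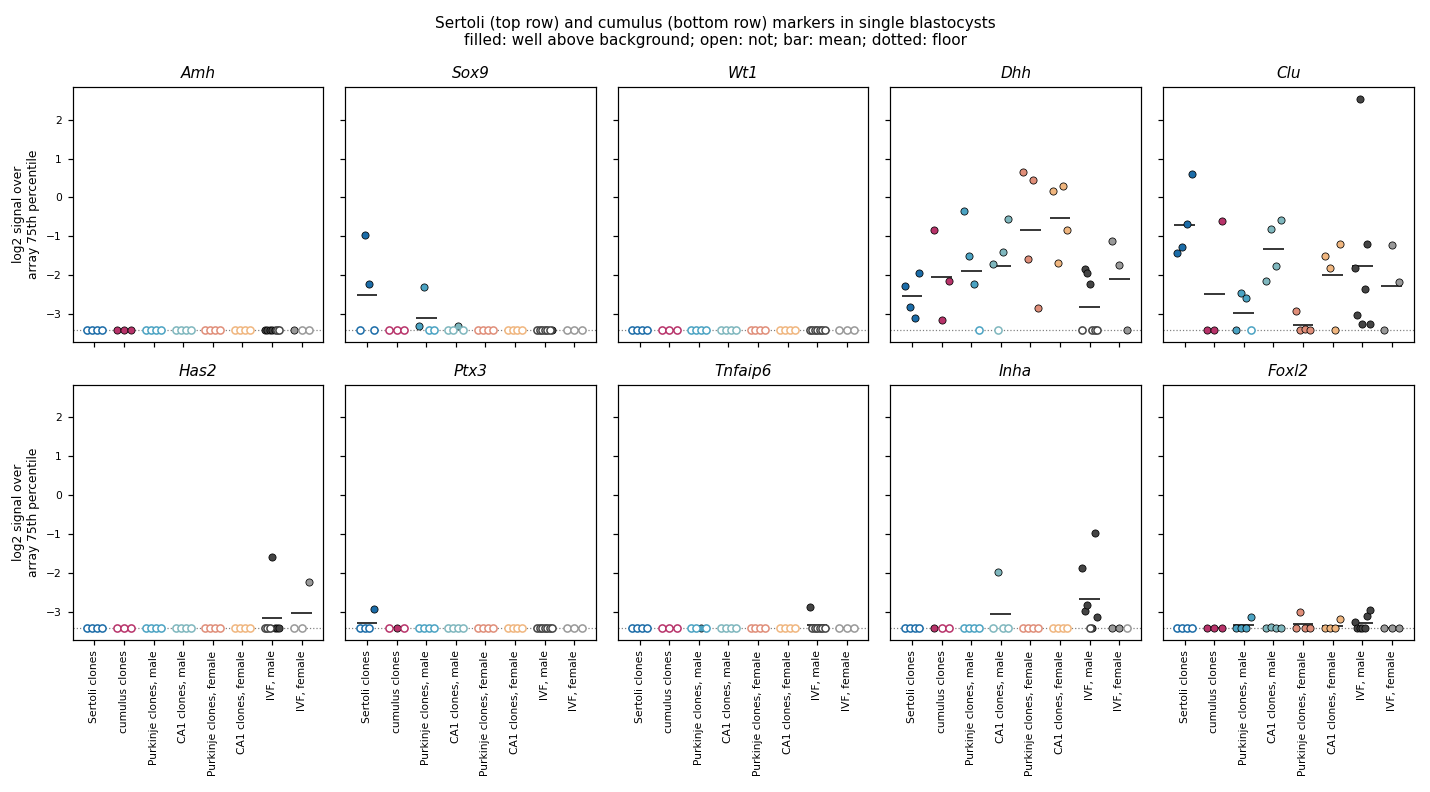
Signal of the brightest probe of each of the 10 member genes on each of the 33 arrays, by group, relative to the array's 75th percentile. The other probes of Sox9, Has2, Ptx3 and Inha are not drawn. Dhh and Clu stand above the floor in most groups, while Amh and Wt1 lie on it on all 33 arrays.

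**Figure D2:**
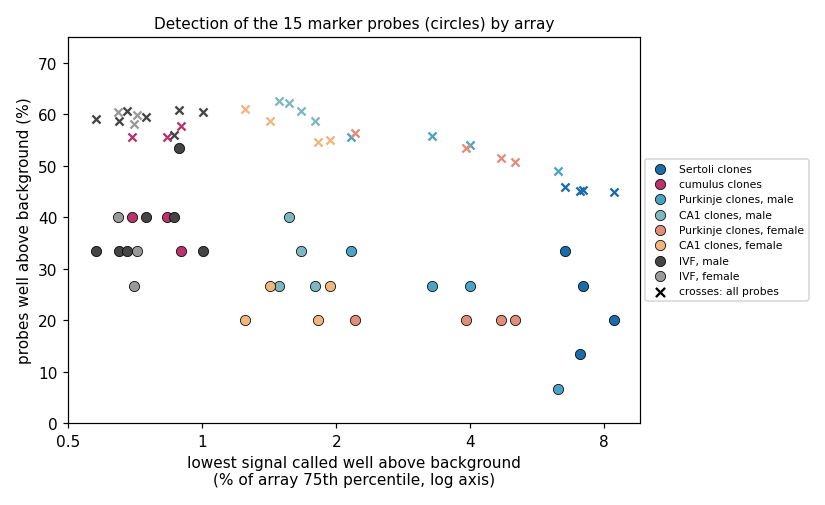
Share of member probes and of all probes (crosses) well above background on each array, against the faintest signal so called on that array (log axis, percent of the 75th percentile). The Sertoli arrays have the highest limits, 6.51% to 8.40%.

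Amh encodes anti-Müllerian hormone, the Sertoli cell product that makes the Müllerian ducts regress. On chromosome 10 by its gene annotation, it gave 1.70%, 1.44%, 1.63% and 1.96% in Sertoli clones, and in male IVF embryos the lowest was 1.46%, the median 2.09% and the highest 3.13%. All 33 values were on the floor, and the Sertoli values lay within or just under the IVF range. The probe was well above background on 9 arrays, all of them among the 13 cumulus and IVF arrays. Its highest signal lay under the faintest signal so called on any Sertoli array (6.51%). The absence of such calls in Sertoli clones therefore does not separate them from the IVF embryos. Wt1, a zinc finger factor of the early gonad, was well above background on 0 of 33 arrays, with signals between -0.929% and 2.33%.

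Sox9, the transcription factor that sets Sertoli fate, was well above background on 2 of its 3 probes in 2 of the 4 Sertoli clones. Probe A_52_P214630 gave 1.72%, 51.0%, 21.5% and 2.02% in the 4 Sertoli clones, against a lowest of -0.626%, a median of -0.0867% and a highest of 8.0% in male IVF embryos. Sertoli replicates 2 and 3 were high and replicates 1 and 4 were within the IVF range, so the groups overlapped. The repeat spots of this probe spanned 49.1% to 52.3% on the array of replicate 2 and 18.7% to 27.2% on that of replicate 3.

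The same probe was also well above background in single male neuronal clones. It gave 10.1%, 20.5%, 1.23% and 2.07% in male Purkinje clones and 0.470%, 0.453%, 10.2% and 0.364% in male CA1 clones. Female clones of all 3 sources stayed at or under 1.37%, and female IVF embryos were below 0. Male Purkinje replicate 2 lay close to Sertoli replicate 3.

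A second probe, A_52_P577484, gave 2.79%, 8.82%, 9.01% and 1.71% in Sertoli clones, and male IVF embryos did not exceed 1.43%. Sertoli replicates 2 and 3 were again the high ones. It was also well above background in male Purkinje replicate 1 (4.04%), male CA1 replicates 1 (2.77%) and 3 (3.44%), cumulus replicate 3 (4.96%) and female IVF replicate 2 (7.67%). The third probe, A_51_P451606, disagreed: it gave 1.78%, 3.15%, 1.51% and 7.16% in Sertoli clones, none well above background, and up to 7.72% in male IVF embryos. None of the 3 probes passed the filter on dim probes. With that filter dropped, A_52_P214630 differed by 0.91 (log2, Sertoli minus male IVF; limma, adjusted p = 0.0333), and without Sertoli replicate 2 by 0.40 (adjusted p = 0.237). Without Sertoli replicate 3 the value was 0.81 (adjusted p = 0.0988), and without male IVF replicate 6 it was 0.91 (adjusted p = 0.0506). Against the mean of the male neuronal clones the unfiltered difference was 0.74 (adjusted p = 0.218).

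**Figure D3:**
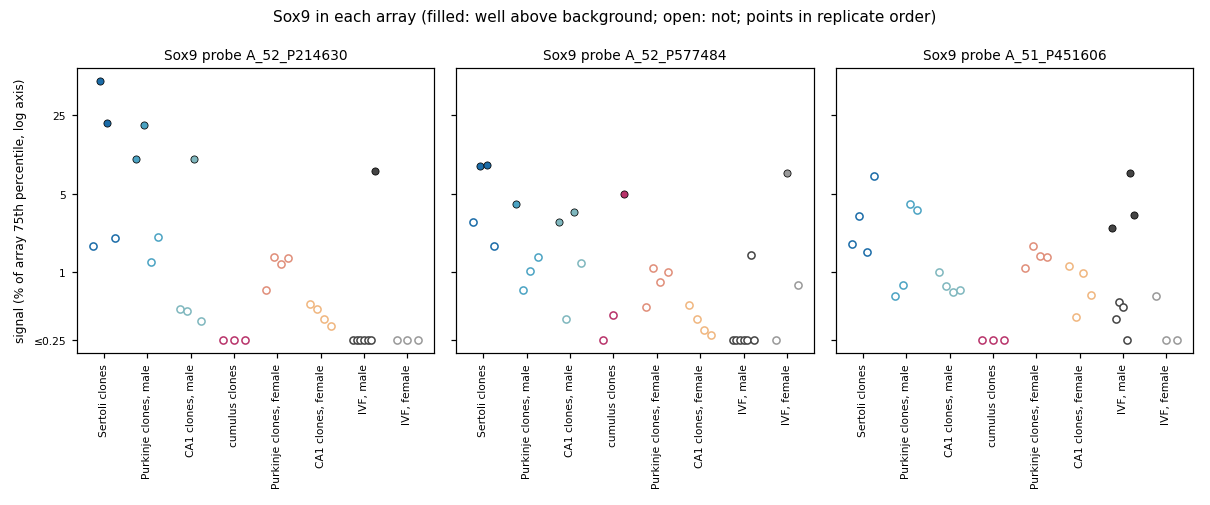
Signal of the 3 Sox9 probes on every array, by group (log axis, percent of the 75th percentile; values under the lowest tick are drawn on it). Sertoli replicates 2 and 3 stand high on both A_52 probes and not on A_51_P451606.

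Dhh encodes desert hedgehog, which Sertoli cells send to neighbouring cells through the receptor Ptch1 and the transducer Smo. It was measured in most clones of every source. It gave 20.7%, 14.1%, 11.8% and 26.2% in Sertoli clones, and in male IVF embryos 3 of 7 were well above background, at 21.6%, 25.9% and 28.2%, with the others under 1%. All 4 Sertoli clones were above the low IVF embryos and below the highest one, so the groups overlapped. On the log2 scale the Sertoli mean was -2.53 ± 0.52 (SD, n = 4) and the male IVF mean was -2.81 ± 0.77 (SD, n = 7), a difference of 0.28 (SE 0.66, limma adjusted p = 0.825).

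Cumulus clones gave 55.9%, 11.4% and 22.5% for Dhh, against 45.8%, 30.0% and 1.58% in female IVF embryos. The groups overlapped, with a difference of 0.05 (95% interval -1.70 to 1.80). The highest Dhh signals were in female neuronal clones: 157%, 33.4%, 136% and 14.0% in Purkinje clones and 112%, 31.1%, 122% and 56.1% in CA1 clones. By group mean (log2 ± SD) the order was female CA1 -0.52 ± 0.93, female Purkinje -0.83 ± 1.67, male CA1 -1.76 ± 1.20, male Purkinje -1.88 ± 1.28, cumulus -2.04 ± 1.15, female IVF -2.09 ± 1.18, Sertoli -2.53 ± 0.52 and male IVF -2.81 ± 0.77. Each step between neighbours in this order was smaller than the SD of either group.

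Clu encodes clusterin, a secreted chaperone abundant in Sertoli cells and made by many epithelia. It was well above background on 32 of 33 arrays. Sertoli clones gave 37.0%, 41.1%, 62.3% and 151%, and male IVF embryos had a lowest of 10.5%, a median of 19.7% and a highest of 577%. All 4 Sertoli clones were above the IVF median, and the single IVF embryo at 577%, replicate 3, was above all of them. The difference was 1.06 (95% interval -0.51 to 2.62, limma adjusted p = 0.339), and 1.77 without that embryo (adjusted p = 0.0221).

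Male Purkinje clones gave 4.41%, 18.4%, 16.8% and 8.09% for Clu, and male CA1 clones gave 22.5%, 56.7%, 29.3% and 67.1%. Every Sertoli clone was above every Purkinje clone, while Sertoli and CA1 clones overlapped. Sertoli clones minus the mean of both neuronal groups came to 1.44 (95% interval -0.09 to 2.97, limma adjusted p = 0.318). Cumulus clones gave 8.85%, 5.23% and 66.1%, against 5.61%, 43.1% and 22.1% in female IVF embryos, and these overlapped. By group mean (log2 ± SD) the order was Sertoli -0.70 ± 0.92, male CA1 -1.33 ± 0.75, male IVF -1.76 ± 2.04, female CA1 -1.98 ± 0.99, female IVF -2.27 ± 1.10, cumulus -2.48 ± 1.63, male Purkinje -2.96 ± 0.53 and female Purkinje -3.28 ± 0.24. Of the neighbouring steps, only that between the 2 Purkinje groups exceeded the smaller of its SDs.

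Among the cumulus markers, Has2 and Tnfaip6 of the ovulatory matrix were not well above background in any cumulus clone, and Ptx3 was in 1 of 3. Has2, the hyaluronan synthase of expanding cumulus cells, gave -0.182%, -0.152% and -0.104% in cumulus clones on probe A_51_P213359, against 1.09%, 0.572% and 21.5% in female IVF embryos. No clone of any source was well above background on it, and the high values were all in IVF embryos, up to 33.3% in male replicate 4. Its second probe was well above background on 1 of 33 arrays. Tnfaip6, which attaches inter-alpha-inhibitor heavy chains to hyaluronan, gave -0.154%, 0.396% and -0.658% in cumulus clones, and was well above background only in male IVF replicate 1 (13.6%) and male Purkinje replicate 3 (5.36%).

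Ptx3 encodes pentraxin 3, which crosslinks those heavy chains. Probe A_52_P26161 gave -0.554%, 7.30% and 1.24% in cumulus clones, against 0.486%, -0.295% and -0.595% in female IVF embryos. Cumulus replicate 2 was well above background at 7.30%, though under the floor. The highest value was 13.2%, in Sertoli replicate 4, the only array above the floor. The other Ptx3 probe was well above background on 1 of 33 arrays.

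Inha encodes the inhibin alpha subunit, made by granulosa and Sertoli cells. Probe A_51_P434554 gave 2.01%, 0.199% and -0.0849% in cumulus clones, against 2.68%, 8.69% and 0.438% in female IVF embryos. In Sertoli clones it gave 1.76%, 2.48%, 3.50% and 4.31%, and in male IVF embryos the lowest was 0.788%, the median 12.7% and the highest 51.4%. The male IVF embryos were the high group on average, with 6 of 7 well above background and 0 of 4 Sertoli clones. Such calls are not comparable between these groups, and the lowest male IVF embryo lay under every Sertoli clone. By group mean the Sertoli clones were at least 1.42-fold lower, with a fitted difference of -0.76 (95% interval -1.40 to -0.11, limma adjusted p = 0.0784), which did not pass the test. The probe passed the filter on dim probes only through the IVF groups, so this difference is not independent of the filter. The bound sets the mean of the bright group against, on each dim array, the higher of the faintest signal well above background and the probe's own.

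The second Inha probe, A_52_P401484, did not show the same pattern. It gave 13.3%, 0.815% and 3.92% in cumulus clones, against -0.0790%, 8.43% and 0.103% in female IVF embryos. It was well above background in 4 of 4 male CA1 clones, at 14.0%, 14.9%, 5.65% and 3.34%, and reached 42.5% in Sertoli replicate 2. The Sertoli minus male IVF difference was 0.54 (95% interval 0.01 to 1.07, limma adjusted p = 0.132), of the opposite sign to the first probe.

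Foxl2, the transcription factor that maintains granulosa identity, stayed in a narrow band near the floor. Cumulus clones gave 4.31%, 5.09% and 3.22%, against 4.54%, 5.44% and 5.26% in female IVF embryos. Over all 33 arrays it ran between 3.22% and 12.9%, with 7 arrays above the floor.

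Of the 15 member probes, 5 passed the filter on dim probes: those of Dhh, Clu and Foxl2 and both of Inha. Across 11 comparisons this made 55 tests, of which 0 passed the threshold of 0.05 on the adjusted p (limma, Benjamini-Hochberg over all 22719 probes tested). The lowest adjusted p was 0.0754, and 3 tests had an unadjusted p under 0.05. Over all probes tested, the share past the threshold was 24.7% for Sertoli clones against male IVF embryos and 3.65% for Sertoli clones against male neuronal clones. It was 4.50% for cumulus clones against female IVF embryos and 18.2% for cumulus clones against female neuronal clones. For the neuronal clones against IVF of the same sex it was 26.6% (male Purkinje), 28.5% (male CA1), 17.5% (female Purkinje) and 12.3% (female CA1). The difference of the clone effect between the sexes was past the threshold for 0.0484% of probes (Purkinje) and 0.810% (CA1), and the Sertoli effect minus the cumulus effect for 3.84%.

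**Figure D4:**
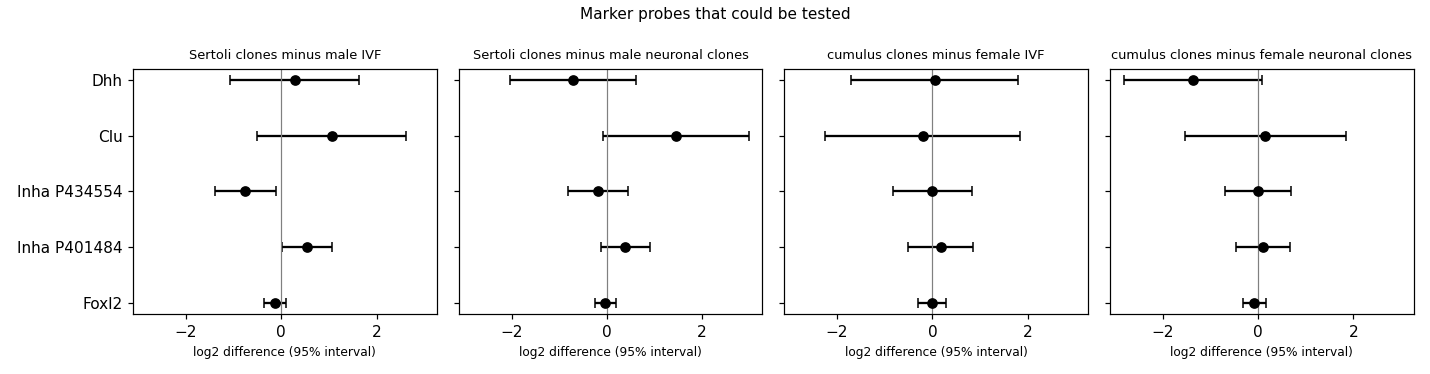
Log2 differences of the 5 tested member probes with 95% intervals (limma), for Sertoli clones and cumulus clones against IVF embryos and against neuronal clones of the same sex. The intervals are wide for Dhh and Clu and narrow for Foxl2, which lies near the floor.

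The receptors and signal transducers that answer these ligands were read as a list of 14 genes, of which 9 were tested. In Sertoli clones against male IVF embryos 2 rose and 1 fell, with a list median of -0.16 against 0.00 for all probes. In cumulus clones against female IVF embryos 0 rose and 1 fell. Against the neuronal clones of the same sex, 0 rose and 0 fell in Sertoli clones, and 0 rose and 1 fell in cumulus clones. The shares of all tested probes past the threshold in these comparisons were, in the same order, 24.7%, 4.50%, 3.65% and 18.2%.

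Amhr2, the receptor of anti-Müllerian hormone, was measured on all 33 arrays although its ligand was not. Its log2 level was 0.07, 0.30, -0.50 and 1.72 in Sertoli clones, against a lowest of -2.18, a median of -1.24 and a highest of -0.92 in male IVF embryos. Every Sertoli clone was above every male IVF embryo, and the difference was 1.90 (SE 0.44, limma adjusted p = 0.00235). It rose as well in male Purkinje clones (2.02), male CA1 clones (2.70), female Purkinje clones (1.74) and female CA1 clones (2.30), which share the IVF embryos of their sex. The call was lost in female CA1 clones without female IVF replicate 3 (limma adjusted p = 0.0598). In female Purkinje clones it was lost in 6 of 18 settings. Among them were those without that embryo (adjusted p = 0.197), without Purkinje replicate 2 (adjusted p = 0.111) or replicate 4 (adjusted p = 0.0550), and without the Purkinje arrays of low signal (adjusted p = 0.264). Cumulus clones, at -0.69, -1.40 and -0.65, overlapped the female IVF embryos, at -0.80, -0.79 and -2.52. Against the female neuronal clones they were lower by a log2 difference of -1.56 (limma adjusted p = 0.0218), which reached an adjusted p of 0.133 without cumulus replicate 2 and 0.107 with scaling to the array median. The clone groups in which Amhr2 rose were all read with other scanner and software versions than the IVF and cumulus arrays. Array set and donor source therefore cannot be told apart in these differences.

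Acvr2a, an activin receptor, had log2 levels of 0.46, 0.43, 0.54 and 0.93 in Sertoli clones, against a lowest of -1.19, a median of -0.67 and a highest of -0.09 in male IVF embryos. The groups did not overlap, and the difference was 1.29 (SE 0.26, limma adjusted p = 0.000611). Acvr2a rose as well in male Purkinje clones (1.63, limma adjusted p = 5.14e-05) and in female Purkinje clones (1.45, adjusted p = 0.00232). The female Purkinje call was lost in 2 of 18 settings, and the gene did not pass the test in CA1 or cumulus clones. Its other 2 probes lay on or near the floor in every group. Acvr2b, the sister receptor, was not well above background in any Sertoli clone and was at least 1.17-fold lower there than in male IVF embryos (limma adjusted p = 0.0346). That call was lost in 11 of 22 settings (adjusted p up to 0.343), among them on leaving out any 1 Sertoli clone or male IVF replicate 1, 6 or 7. The same log2 difference, -0.52, was also called in male Purkinje and male CA1 clones. Every clone array lay on the floor on this probe. It met the floor rule of the filter only through IVF embryos, so these differences are not independent of the filter.

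Smo, which carries the hedgehog signal into the cell, gave 0.308%, 0.246% and 0.429% in cumulus clones on probe A_51_P258766, against 94.8%, 64.9% and 100% in female IVF embryos. No cumulus clone was well above background, and it was at least 106-fold lower there (limma adjusted p = 0.00703). It was at least 22.5-fold lower in female Purkinje clones (adjusted p = 0.000828), a call lost in 2 of 18 settings, among them without the Purkinje arrays of low signal (adjusted p = 0.134). In female CA1 clones it was lower by a log2 difference of -3.02 (limma adjusted p = 0.00187), a call kept in all 18 settings. Its other 2 probes lay on the floor in every group, so this rests on 1 probe. It also rests on 3 female IVF embryos, and male IVF embryos split on this probe, with several of them on the floor.

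**Figure D5:**
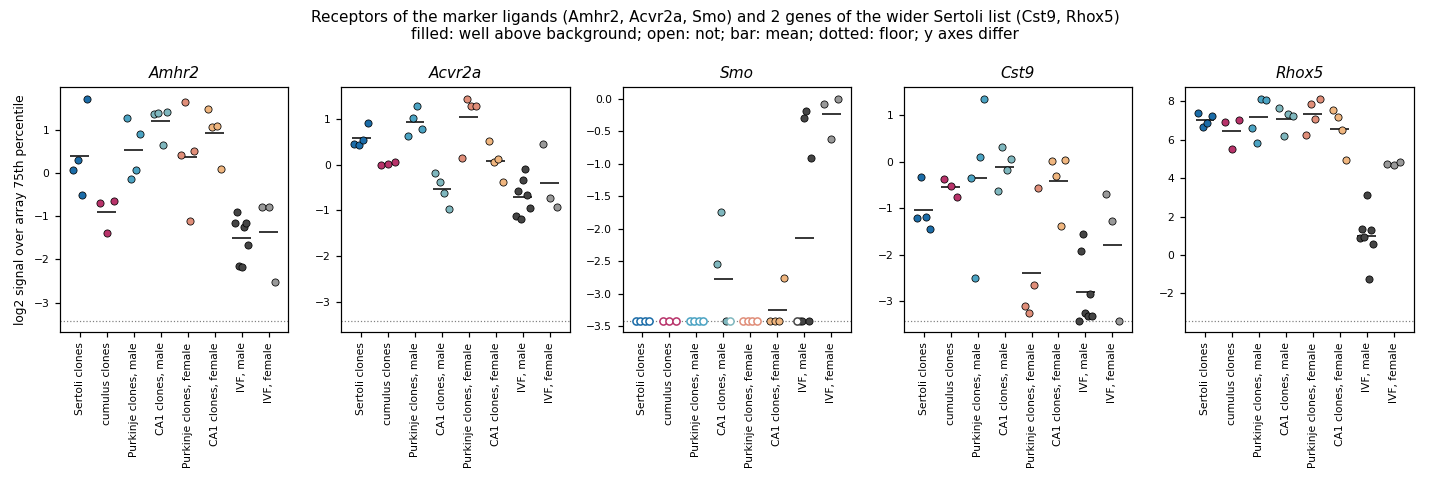
Log2 level of Amhr2, Acvr2a and Smo and of the Sertoli list genes Cst9 and Rhox5, by array and group; filled points are well above background, bars are group means and the dotted line is the floor. Amhr2 averages higher in the Sertoli and the 4 neuronal clone groups than in IVF embryos of the same sex, while the cumulus clones overlap the female IVF embryos. The cumulus and IVF arrays share a scanner and software version that the other arrays do not.

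A wider list of 23 Sertoli genes, of which 13 were tested, had 4 that rose and 3 that fell in Sertoli clones against male IVF embryos, and 0 in either direction against male neuronal clones. Of all tested probes, 24.7% and 3.65% were past the threshold in these comparisons, so 0 of 13 is near the share in the second. The largest change against male IVF embryos was that of Rhox5, an X-linked homeobox gene of Sertoli cells and early embryos, which rose by 6.05 (limma adjusted p = 3.19e-08). It rose by 6.19 in male Purkinje and 6.11 in male CA1 clones as well. In female Purkinje clones it rose by 2.59 (adjusted p = 0.0112), a call lost in 2 of 18 settings, among them without the arrays of low signal (adjusted p = 0.576). In cumulus and female CA1 clones it did not pass the test. The mean log2 level was 0.98 in male and 4.74 in female IVF embryos. Rhox5 was the 1 gene of this list called in the Sertoli effect minus the cumulus effect (4.32, limma adjusted p = 0.0118, and 0.0876 with normexp). It was also called in the CA1 effect, male minus female (4.31, limma adjusted p = 0.0152), a call lost in 1 of 29 settings. Sertoli clones were male and cumulus clones female, and their array sets differed. Donor source, sex and array set therefore cannot be told apart in this difference. Tmem184a rose by 1.59 (limma adjusted p = 0.00373) and Cst9, a cystatin of the testis, by 1.76 (adjusted p = 0.0244), while Nr0b1, which encodes the nuclear receptor DAX1, was not well above background in any Sertoli clone and was at least 5.19-fold lower (adjusted p = 0.0160; 0.184 with the replicate number as a block). The Cst9 call was lost in 3 of 22 settings, among them without Sertoli replicate 2 (adjusted p = 0.0907) and with the replicate block (adjusted p = 0.131). These changes were shared with neuronal clones. Cst9 rose by 2.46 in male Purkinje and 2.70 in male CA1 clones. Tmem184a rose by 1.56 in male Purkinje, 3.15 in male CA1 and 1.86 in female CA1 clones, and Nr0b1 differed by -2.30 in male CA1 clones. In male CA1 clones the same list had 4 that rose and 3 that fell, and in male Purkinje clones 4 and 2. The shares of all tested probes past the threshold there were 28.5% and 26.6%.

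A wider list of 25 granulosa and cumulus genes, of which 9 were tested, had 0 that rose and 0 that fell in cumulus clones against female IVF embryos and against female neuronal clones. Of all tested probes, 4.50% and 18.2% were past the threshold in these comparisons. In Sertoli clones against male IVF embryos, where that share was 24.7%, 3 rose and 1 fell. Gja1, the gap junction protein connexin 43 of cumulus cells and of embryos, rose by 1.32 there (limma adjusted p = 0.000935), and Npr2, the C-type natriuretic peptide receptor, fell by 1.56 (adjusted p = 0.0409). Both were also called against IVF in male Purkinje clones (log2 differences of 1.24 for Gja1 and -2.35 for Npr2). Npr2 was lower as well in male CA1 (-1.72) and female Purkinje clones (-2.47). The Npr2 call in Sertoli clones was lost in 9 of 22 settings (limma adjusted p up to 0.189), among them without Sertoli replicate 2 or 4 or male IVF replicate 1, 3, 6 or 7. Of 13 hyaluronan matrix genes, 4 were tested. In cumulus clones 0 rose and 1 fell against female IVF embryos, with a list median of 0.58 against 0.00 for all probes. Against female neuronal clones 0 rose and 1 fell as well, with a list median of 0.26 against -0.10. The gene that fell in both was Hyal2, so its sign was opposite to the list median. Hyal2, a hyaluronidase, had log2 levels of -0.49, -0.31 and -0.74 in cumulus clones, against 1.37, 0.52 and 0.59 in female IVF embryos. These groups did not overlap, and Hyal2 fell by 1.34 (limma adjusted p = 0.0224) and was lower than in female neuronal clones by a log2 difference of -1.55 (adjusted p = 0.000476). The call against IVF was lost on leaving out any 1 cumulus clone or female IVF replicate 1 (adjusted p up to 0.108), with normexp (adjusted p = 0.0910) and with scaling to the array median (adjusted p = 0.0525).

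Genes of the embryo and of other cell types were read beside the markers. All 10 blastocyst genes were tested, and in Sertoli clones against male IVF embryos 1 rose and 3 fell, with a list median of -0.68 against 0.00 for all probes. Of all tested probes, 24.7% were past the threshold in this comparison. Gata6, a primitive endoderm factor, rose by 0.76 (limma adjusted p = 0.00251), and Pou5f1, the pluripotency factor OCT4, fell by 0.70 (adjusted p = 0.0219). Gata4, also of the primitive endoderm, was not well above background in any Sertoli clone and was at least 2.20-fold lower (adjusted p = 0.0360). The Pou5f1 call was lost in 5 of 22 settings (limma adjusted p up to 0.199), among them without Sertoli replicate 1, 2 or 3. The Gata4 call was lost in 12 of 22 settings (adjusted p up to 0.140), among them on leaving out any 1 Sertoli clone or male IVF replicate 3, 4 or 5. With normexp background correction 0 of the 4 genes passed the test. Krt18, a trophectoderm keratin, had log2 levels of 7.79, 7.65, 7.78 and 7.99 in Sertoli clones, against a lowest of 8.19, a median of 8.83 and a highest of 9.07 in male IVF embryos. The groups did not overlap, and it fell by 0.84 (limma adjusted p = 0.000536; 0.0903 with normexp). Of 5 fibroblast genes 1 was tested, and of 4 blood genes 3. Cd68, a macrophage lysosomal gene, rose in all 6 clone groups, with log2 differences between 2.30 (Sertoli) and 3.93 (female CA1). In cumulus clones its call (limma adjusted p = 0.0279) was lost in 6 of 17 settings (adjusted p up to 0.125), among them on leaving out any 1 cumulus clone or female IVF replicate 2 or 3. In female Purkinje clones it was lost without the arrays of low signal (adjusted p = 0.0616). The part of other cell types in these values was not tested.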

How the data were processed

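Single-blastocyst RNA was amplified over 2 rounds and hybridised to one-colour Agilent arrays, per the labels' protocols. The scanner files hold each spot's intensity (processed signal), background-corrected by Agilent Feature Extraction, per the file headers; version 10.5.1 is named in the submitters' processing notes. The authors' deposited log2 values, centred per probe within each sex, were used only as an alternative. Recomputing them from the scanner signals gave a median absolute difference of 0.00669 (male) and 0.00753 (female).

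Each signal was divided by the array's 75th percentile of non-control spots, spots flagged as outliers were left out, spots of a probe were averaged, a common floor was set and log2 taken. A probe was tested if more than 50% of any group's arrays called it well above background and 3 or more arrays exceeded the floor (22719 of 41174). One limma 3.58.1 model (R 4.3.3) of 8 group means over all 33 arrays gave every comparison, with Benjamini-Hochberg adjustment over all probes tested. On simulated data for Sertoli against male IVF (22719 probes), 40% of changes of 1 and 93% of changes of 2 (log2) were recovered. The changes were placed only in probes with a mean well above the floor, brighter than every tested member probe. Recovery at the level of the members was therefore not simulated. Same-numbered replicates did not deviate together (15 of 99 pairs with r over 0.1), so the numbers were not used to pair samples. Arrays within a group correlated at r of 0.922 to 0.981.

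The members and lists were chosen with earlier results of these data known. Named were all members, up to 4 tested list genes with the largest change per list and comparison (brightest probe), and the 3 genes most correlated with each member whose brightest probe was detected on more than 50% of all arrays. Gene names were updated through the probe's accession (22951 probes), its symbol (6659) or a synonym (3109); the remaining 8455 stayed as deposited. Background correction, scaling, floor, filter, probe choice, slide and replicate blocks and each array left out in turn were the alternatives.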

Additional observations from a re-analysis of the deposited data

Results flagged for a closer look

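An array far from the others was sought in 29 sets, each 1 member probe in 1 group of 4 or 7 arrays. The search flagged 15 arrays, where chance gives about 1 in 20 if no values are held at a floor. In many of these sets every other array lay on the floor, so any value above it stands apart and that rate does not apply. All values are log2.

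For Sox9 probe A_52_P214630, male Purkinje replicate 2 was at -2.29 and male CA1 replicate 3 at -3.30. Sertoli replicate 2 was at -0.97 on this probe, which the tests left out and which was below the floor on every female array; these 3 arrays are signal outside the tested probes. Ptx3 probe A_52_P26161, also untested, was at -2.92 in Sertoli replicate 4 and stood apart from the other Sertoli clones.

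Clu stood apart in female Purkinje replicate 1 (-2.92) and in male IVF replicate 3 (2.53). Has2 stood apart in male IVF replicate 4 (-1.59) and Tnfaip6 in male IVF replicate 1 (-2.88). Inha probe A_51_P434554 stood apart in male CA1 replicate 2 (-1.97). Inha probe A_52_P401484 did so in Sertoli replicate 2 (-1.24), female CA1 replicate 3 (-2.93) and male IVF replicate 4 (-3.35). Foxl2 stood apart in male Purkinje replicate 4 (-3.14), male CA1 replicate 2 (-3.39), female Purkinje replicate 2 (-3.00) and female CA1 replicate 4 (-3.18).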

How the results depend on the processing

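Counts of probes past the threshold moved by over 1.5 times as follows. With normexp background correction, chosen after seeing the data in this form because the mean signal was absent from 20 files, they were 2605 against 5610 (Sertoli minus male IVF), 128 against 830 (Sertoli minus male neuronal clones), 222 against 1022 (cumulus minus female IVF), 2631 against 4141 (cumulus minus female neuronal clones), 3980 against 6466 (male CA1), 839 against 2787 (female CA1), 0 against 11 (Purkinje effect between sexes), 1 against 184 (CA1 effect between sexes) and 30 against 872 (Sertoli effect minus cumulus effect). Median scaling gave 519 (Sertoli minus neuronal) and 542 (Sertoli minus cumulus effect), slide as a random block 451, 676 (cumulus minus female IVF), 117 (CA1 between sexes) and 504, and no filter 613 and 488. The replicate block gave 561 for the Sertoli minus cumulus effect. For the Purkinje effect between sexes the authors' values gave 4 and a lower floor 5. Without the Purkinje arrays of low signal, added after seeing the data, counts were 2155 against 6053 (male Purkinje), 361 against 3972 (female Purkinje) and 33 against 11. Leaving out 1 array in turn gave 4196 to 6170, 345 to 932, 268 to 822, 2342 to 4408, 4212 to 6586, 4990 to 6475, 2635 to 4451, 1725 to 2726, 9 to 27, 103 to 251 and 364 to 1060, in the order Sertoli, Sertoli minus neuronal, cumulus, cumulus minus neuronal, male Purkinje, male CA1, female Purkinje, female CA1, the Purkinje and CA1 effects between sexes, and Sertoli minus cumulus effect.

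Under normexp, signs reversed for Inha A_52_P401484 (1.65), Foxl2 (1.10), Acvr2b (0.89) and Gata4 (0.33) in male Purkinje clones minus male IVF, and for Trf in cumulus minus female neuronal clones (-0.18). Members passed the threshold in some settings. With the authors' values Inha A_52_P401484 was higher by 3.86 in Sertoli (adjusted p = 0.0284) and 4.94 in male CA1 clones (0.00487; 2.24 with a lower floor), and Foxl2 lower in cumulus than in female neuronal clones (-1.05; -1.07 with a lower floor). Without male IVF replicate 4 or 5, Inha A_51_P434554, not well above background in any Sertoli or male Purkinje clone, passed in both (adjusted p from 0.0349 to 0.0370). With a lower floor it passed in male Purkinje (0.0264) and male CA1 clones (-1.96, 0.0494). With normexp Dhh (1.75, 0.0342), Inha A_52_P401484 and Foxl2 passed in male Purkinje and Foxl2 in female Purkinje clones (1.69, 0.0173). Clu passed without male IVF replicate 3. The cause was not tested. Signals under the floor carry no order, and the number of arrays limits the precision.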

Other observations

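Among genes whose level followed a member's most closely over the 33 arrays, which share dye, floor and array scale, Slc26a10 (Pearson r = 0.71), Pqlc3 (r = 0.63) and Blzf1 (r = 0.62) were nearest to Dhh. Foxk2 (r = 0.65) and Prkaca (r = 0.63) followed Clu after an unnamed transcript probe (r = 0.68). For Foxl2, which lay on the floor on 26 of the 33 arrays, they were Lrrc8e (r = 0.76) and Olfr126 (r = 0.72), beside a probe without a gene symbol (r = 0.75).

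Male IVF embryos split on Smo probe A_51_P258766: replicates 4, 5 and 7 had log2 levels of -0.30, -0.19 and -0.91, and the other 4 lay on the floor.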
